A study of Mus musculus with 468 samples.

Results

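Fos encodes a subunit of the transcription factor AP-1 and is the best known immediate-early gene. Adipose RNA libraries with high Fos were compared here with libraries with low Fos, and the members of both groups were chosen by the Fos level itself. Libraries were put in the order of their mouse numbers and divided into 5 consecutive blocks of 93 or 94 libraries. Inside each block the 23 libraries with the highest Fos level and the 23 with the lowest were taken, where 23 is 25% of the block rounded down. The high-Fos group and the low-Fos group are therefore of equal size and together hold 230 libraries, which is 49.1% of the libraries of the series, while 50.9% lie between them.

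The RNA came from adipose tissue. The animals were Diversity Outbred mice, a stock bred from several inbred founder strains so that the animals differ in genotype. Both groups alike, and the libraries between them, had been fed the same diet rich in fat and sugar (HFHS), with 45 percent fat, so neither group is a control diet or a treatment. The methods of the study describe gonadal fat pads of males and females from several outbreeding generations, but the labels used here give neither sex, generation, age nor batch. Each mouse gave 1 library, so that the spread between libraries holds the animal and the assay together.

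Immediate-early genes are switched on within minutes of a stimulus by transcription factors that are already present in the cell, such as serum response factor with its ternary complex partners and CREB, which are reached through the MAP kinase and cyclic AMP pathways. Their products include other transcription factors (Fosb, Junb, the Egr and Nr4a families), enzymes and RNA-binding proteins that switch the response off again (Dusp1, Zfp36, Btg2), and secreted proteins (Ccn1, Cxcl1, Ccl2). In fat tissue they respond to hormones, feeding state, stretch and inflammatory signals, and in any tissue they respond to handling during collection.

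The promoters of 4 of these genes are shown because elements bound by Egr proteins, serum response factor and CREB can be read in them. Each is the sequence before 1 start of the gene in RefSeq on GRCm38.p6, 5′ to 3′ on the strand of the gene. Bases that GENCODE M21 counts as exon are left out, and motifs are in capitals. The Egr2 and Nr4a1 sequences lie inside the span that GENCODE M21 gives for these genes, before an internal start. The Fosb sequence lies at chr7:19310052-19310295 on the minus strand, and its capitals mark the Egr motif GCGGGGGCG at 50 to 42 bases before the start. The Egr2 sequence lies at chr10:67537619-67537868 on the plus strand, and its capitals mark a CArG box, the element bound by serum response factor, at 72 to 63 bases before the start. The Nr4a1 sequence lies at chr15:101266596-101266845 on the plus strand, where the Egr motif is read on the opposite strand at 60 to 52 bases before the start. The Btg2 sequence lies at chr1:134079156-134079405 on the minus strand, with the CREB motif TGACGTCA in capitals.
Fosb: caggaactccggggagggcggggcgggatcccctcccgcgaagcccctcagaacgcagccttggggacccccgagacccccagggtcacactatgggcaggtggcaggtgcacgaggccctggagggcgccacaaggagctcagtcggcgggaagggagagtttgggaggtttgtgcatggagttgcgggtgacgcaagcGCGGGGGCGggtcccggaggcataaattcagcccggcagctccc
Egr2: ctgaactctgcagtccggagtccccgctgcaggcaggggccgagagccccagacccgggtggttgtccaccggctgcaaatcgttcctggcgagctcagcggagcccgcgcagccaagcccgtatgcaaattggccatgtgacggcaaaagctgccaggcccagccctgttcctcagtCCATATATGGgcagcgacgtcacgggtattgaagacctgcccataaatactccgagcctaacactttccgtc
Nr4a1: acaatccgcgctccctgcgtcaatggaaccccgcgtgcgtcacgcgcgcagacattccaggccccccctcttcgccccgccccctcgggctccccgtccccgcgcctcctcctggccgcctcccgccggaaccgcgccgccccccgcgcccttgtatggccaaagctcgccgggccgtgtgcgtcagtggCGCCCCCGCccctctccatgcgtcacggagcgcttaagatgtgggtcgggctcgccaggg
Btg2: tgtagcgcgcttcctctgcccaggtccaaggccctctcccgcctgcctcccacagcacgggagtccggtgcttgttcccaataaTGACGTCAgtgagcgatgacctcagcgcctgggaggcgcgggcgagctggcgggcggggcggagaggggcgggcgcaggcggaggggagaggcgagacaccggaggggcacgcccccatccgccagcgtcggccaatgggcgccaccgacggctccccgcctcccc

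Of the 81 early response genes tested, 58 had a promoter in this collection, and 250 bases before each start were searched on both strands. The Egr motif GCGGGGGCG was found for 12 of them (20.7%), against 5.25% of the 12669 tested genes with a promoter and 2.57% of all 32851 promoters. A CArG box was found for 4 (6.9%), against 1.41% of the tested genes and 1.47% of all promoters. The CREB motif TGACGTCA was found for 5 (8.62%), against 2.72% and 1.55%, and the AP-1 motif TGANTCA, which does not overlap it, also for 5 (8.62%), against 5.94% and 6.75%. A gene was counted if any of its starts had a match, whereas all promoters were counted singly, so that these shares are of unlike units. These are matches of letters in a window, with no test.

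Fos was read in counts per 1000000 (CPM), the count of the gene divided by the total count of its library. In the high-Fos group Fos lay between 16.95 and 169.3 CPM with a median of 51.7 CPM, and in the low-Fos group between 1.76 and 15.67 CPM with a median of 5.51 CPM, so that the medians differ 9.39-fold by choice. The libraries between the groups had a median of 17.1 CPM. The limits moved with the mouse number: in block 1 the highest low-Fos library had 6.443 CPM and its next neighbour 6.83 CPM, while the lowest high-Fos library had 16.95 CPM and its neighbour 16.86 CPM. In block 5 the same 4 values were 15.67, 15.78, 49.45 and 48.41 CPM. The limits cut through a continuous range of levels and separate no clusters of libraries.

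**Figure D1:**
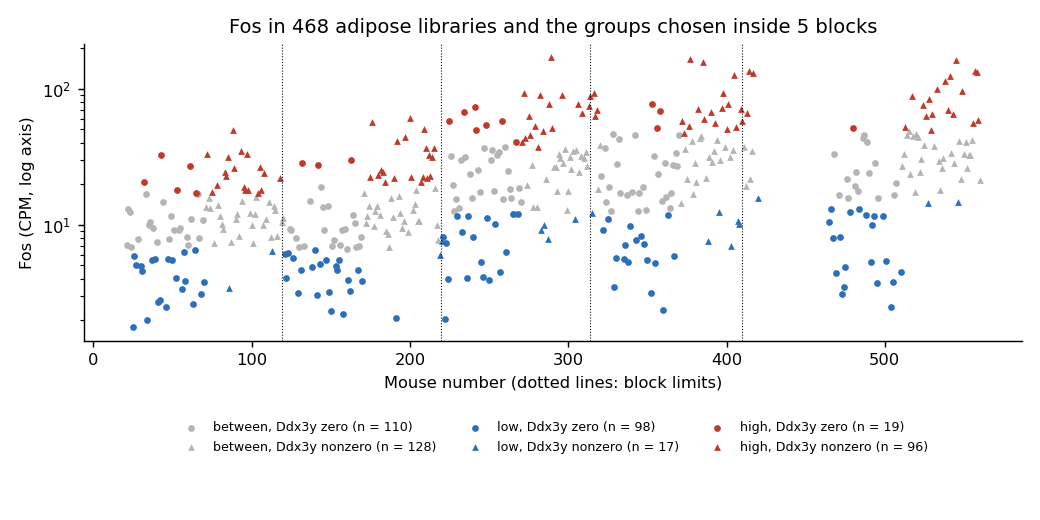
Fos in each library of the series (CPM, log axis) against mouse number, with dotted lines at the limits of the 5 blocks. Red marks the high-Fos group, blue the low-Fos group and grey the libraries between them; triangles are libraries with Ddx3y counts and circles libraries without. The levels form a continuous band in each block, and triangles make up 83.5% of the red symbols and 14.8% of the blue ones.

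The groups were not alike in other ways. Ddx3y, a gene of the Y chromosome, had counts in 96 high-Fos libraries (83.5%) and in 17 low-Fos libraries (14.8%). Over all libraries the median of Fos was 26.6 CPM in libraries with Ddx3y counts (51.5% of them) and 10.4 CPM in those without (48.5%). The share of counts from mitochondrially encoded genes was 5.02% ± 1.89 in the high-Fos group and 10.1% ± 3.84 in the low-Fos group (SD over the libraries of a group, adjusted p = 1.8e-05 by permutation inside blocks, the smallest it can give). This difference stood at 6.98% against 10.95% among libraries without Ddx3y counts and at 4.63% against 5.35% among libraries with them. The total count did not pass the test (82.1 ± 12.1 against 83.8 ± 14.2 in units of 1000000 counts, SD, adjusted p = 0.34 by permutation). Of 9 such properties of the libraries 6 passed inside blocks. Beside Ddx3y and the mitochondrial share these were the TMM scaling factor (1.06 ± 0.0885 against 0.923 ± 0.109, SD), the number of genes with a count (means of 21920 and 21640), the share of counts from cytosolic ribosomal protein genes (1.23% against 1.09%) and the mouse number, which inside the blocks was still higher in the high-Fos group (mean 287.2 against 258.3, adjusted p = 1.8e-05 by permutation). Inside the Ddx3y classes the mean mouse number was lower in the high-Fos group. It was 208.1 against 245.9 without Ddx3y counts and 302.8 against 329.8 with them. In the same order, the ribosomal protein share was 1.176% against 1.054% and 1.235% against 1.293%. The TMM factor was 1.022 against 0.903 and 1.068 against 1.039, and the genes with a count 21790 against 21590 and 21940 against 21920. These means by class do not take out block and were not tested. The part of these properties in the results was not tested beyond the fits given below.

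Genes were compared with edgeR's quasi-likelihood test, with block and the presence of Ddx3y counts as covariates, over 18379 genes, and were called at a Benjamini-Hochberg adjusted p under 0.05. Fos was left out because it chose the groups. Of the genes tested, 4224 (23%) were higher in the high-Fos group and 4420 (24%) lower. At a fold of at least 1.5 there were 1128 higher (6.14%), and 2.4% were lower. Of the 1128 genes, 975 (86.4%) had the same sign in separate fits of all 5 blocks. Of the genes lower at this fold 57.7% had it, and of the 18379 genes tested 6486 (35.3%). The block fits use the same libraries that made the calls. When libraries were scaled by their total count alone, the median log2 fold change over all genes moved from −0.01 to 0.10 and the counts became 7135 higher and 1911 lower, so that small differences below depend on the scaling.

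Because the groups differ so much in Ddx3y, the comparison was repeated in other ways whose results stand beside the first. Groups chosen inside each block and Ddx3y class, which balances the class by design, gave 5230 genes higher (28.5%) and 4949 lower (26.9%). With 5 scores for adipocytes, macrophages, endothelial cells, smooth muscle and adipocyte progenitors as further covariates, 2.52% of the genes were higher and 0.898% lower. Both changes together gave 4.9% higher and 1.76% lower. Where log2 Fos CPM entered as a slope over the libraries between the groups, none of which is a member, 2.99% of the genes rose with Fos and 1.76% fell. A score is the mean of the standardised log2 CPM of a list of marker genes, and all of these comparisons share libraries or the choice by Fos, so that they are not independent of each other.

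In whole tissue, fewer cells of a type and less RNA per cell cannot be told apart. The tissue label was checked against its markers: all 13 adipocyte markers were measured, and their summed level had a median of 33502 CPM in the high-Fos group and 33520 CPM in the low-Fos group. Adipocyte transcripts were thus present at a like summed level in both groups taken whole. The medians were 33502 CPM against 33260 CPM without Ddx3y counts and 33497 CPM against 36973 CPM with them, high-Fos first. Marker by marker, 1 of the 13 was higher and 8 were lower in the edgeR comparison. Macrophage transcripts were not: the summed level of 16 markers lay between 579.5 and 10880 CPM in the high-Fos group (median 2334 CPM) and between 303.99 and 2272 CPM in the low-Fos group (median 979.7 CPM).

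Most, but not all, of the early response genes were higher in the high-Fos group. Of the 81 tested genes of 5 lists 49 were higher (60.5%) and 4 lower, and 28 did not pass, with a median log2 fold change of 0.29 where all genes had −0.01. The main comparison called 23% of all genes higher and 24% lower. With groups balanced for Ddx3y class the counts were 58 higher and 5 lower, where 28.5% and 26.9% of all genes were called. With the cell scores they were 36 higher and 0 lower, where 2.52% of all genes were called higher by the same test. Over the libraries between the groups 29 rose with Fos and 1 fell, beside 2.99% and 1.76% of all genes. All fits named here had most called early response genes on the higher side. Scaling by total count gave 59 higher and 2 lower, but it also called 38.8% of all genes higher and 10.4% lower.

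Among the AP-1 family, whose members pair to form the factor to which Fos belongs, all 11 tested genes were higher, with a median log2 fold change of 0.63. With the cell scores 6 of the 11 were still called. Fosb, the closest relative of Fos, had the largest rise. Its level lay between 1.58 and 95.02 CPM in the high-Fos group (median 13.3 CPM) and between 0.457 and 6.66 CPM in the low-Fos group (median 1.62 CPM). The groups overlapped, but 80 high-Fos libraries were above the highest low-Fos library. The log2 fold change of Fosb was 2.66 ± 0.18 (SE, adjusted p = 7.83e-30 by edgeR), 2.40 with groups balanced for Ddx3y class and 3.07 ± 0.19 with the cell scores.

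Junb, the Jun protein most often induced together with Fos, lay between 6.36 and 47.9 CPM in the high-Fos group (median 22.1 CPM) and between 2.97 and 26.2 CPM in the low-Fos group (median 6.68 CPM). Here 42 high-Fos libraries were above every low-Fos library. Its log2 fold change was 1.09 ± 0.08 (SE, edgeR adjusted p = 9.82e-29) and was almost the same in the other fits, 1.10 with balanced classes and 1.00 with the cell scores. The other Jun genes moved less, with log2 fold changes of 0.18 for Jun (adjusted p = 0.0323) and 0.19 for Jund (adjusted p = 0.00165). In block 1 alone the sign of Jun turned (−0.01). Exons of Junb, Jun and Jund overlap genes on the opposite strand, and use of strand in the counting is not given in the sources used here.

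Other AP-1 members depended more on the cell scores. Atf3, a stress-induced factor, rose by a log2 fold change of 1.53 ± 0.21 (SE), and by 0.81 with the scores, both called by edgeR. Fosl1, or Fra-1, rose by 0.84 and stood at 0.32 with the scores (adjusted p = 0.0573). Batf, a factor of lymphoid and myeloid cells, rose by 0.63 and stood at −0.06 with the scores (adjusted p = 0.794). Fosl2 (0.37) and the small Maf gene Mafk (0.26) were called in both fits, at 0.32 and 0.26 with the scores, while Maff (0.44) stood at 0.34 with them (adjusted p = 0.0872).

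**Figure D2:**
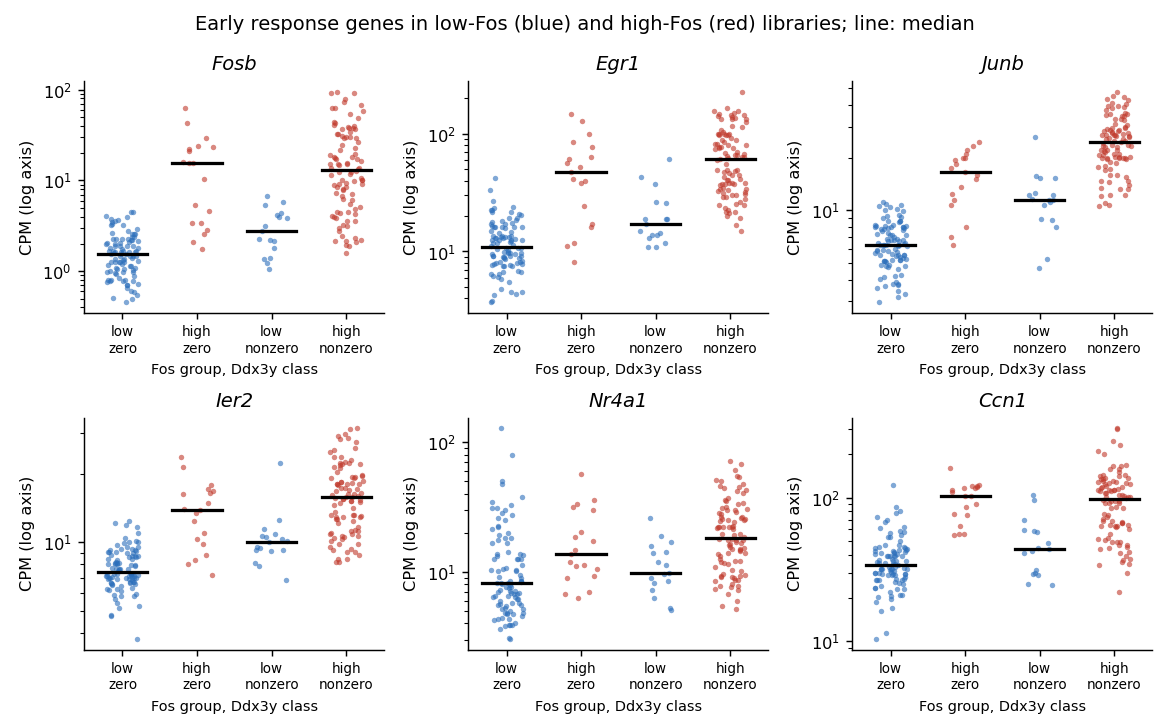
Levels of 6 early response genes (CPM, log axis) in low-Fos libraries (blue) and high-Fos libraries (red), split by Ddx3y class, 1 point per library, with a line at the median. The red points sit above the blue ones in both classes for Fosb, Egr1, Junb, Ier2 and Ccn1, with overlap, and the groups of Nr4a1 overlap most.

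The Egr and Nr4a families are zinc finger factors and orphan nuclear receptors that are induced by the same stimuli as Fos. Of 8 tested genes of this list 6 were higher and 1 lower, and 4 were higher and 0 lower with the cell scores. Egr1 lay between 8.13 and 228.5 CPM in the high-Fos group (median 56.5 CPM) and between 3.70 and 61.6 CPM in the low-Fos group (median 12.4 CPM). As many as 54 high-Fos libraries were above the highest low-Fos library. Its log2 fold change was 1.73 ± 0.12 (SE, edgeR adjusted p = 1.66e-29), which is 3.33-fold, and 2.06 ± 0.12 with the cell scores.

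Egr2 and Egr3, which are lower in level, moved by similar amounts. Egr3 lay between 0.1765 and 4.92 CPM in the high-Fos group (median 1.21 CPM) and between 0.012 and 0.968 CPM in the low-Fos group (median 0.331 CPM), with 76 high-Fos libraries above every low-Fos library. Egr2 rose by a log2 fold change of 1.84 ± 0.22 and Egr3 by 1.53 ± 0.15 (SE, called by edgeR), and by 1.21 and 1.19 with the cell scores. Nab2, a corepressor that Egr proteins induce to limit themselves, rose by 0.61 and stood at 0.19 with the scores (adjusted p = 0.0557). Nab1 rose by 0.14, and its sign turned in block 5 alone (−0.14) and where both balanced classes and scores were used (−0.01).

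The Nr4a genes went different ways. Nr4a1 lay between 5.20 and 71.7 CPM in the high-Fos group (median 17.7 CPM) and between 3.04 and 128.4 CPM in the low-Fos group (median 8.47 CPM), so that the highest value of all was in a low-Fos library. It rose by a log2 fold change of 0.60 ± 0.19 (SE, edgeR adjusted p = 0.00667) and by 1.25 ± 0.20 with the cell scores. Nr4a3 had like medians of 4.17 CPM (1.49 to 19.7 CPM) in the high-Fos group and 3.62 CPM (1.28 to 90.7 CPM) in the low-Fos group, and was called lower at −0.67 ± 0.17 (SE, edgeR adjusted p = 0.000565). This call was lost with balanced classes (−0.17, adjusted p = 0.297), and the sign turned with the cell scores (0.30, adjusted p = 0.389). Nr4a2 stood at −0.20 and did not pass (adjusted p = 0.205).

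Of the other early transcription factors 6 of 19 were higher (31.6%, beside 23% of all genes) and 1 lower in the high-Fos group, 12 did not pass, and the median log2 fold change was 0.09. The list had 11 higher and 2 lower with balanced classes, 6 and 0 with the cell scores, and 12 and 0 with scaling by total count, which called 38.8% of all genes higher. Ier2, a small nuclear protein of unclear mechanism that is induced with Fos, lay between 7.19 and 31.6 CPM in the high-Fos group (median 15.55 CPM) and between 3.775 and 22.1 CPM in the low-Fos group (median 7.85 CPM). Of the high-Fos libraries 1 was below the low-Fos median. Ier2 rose by a log2 fold change of 0.63 ± 0.06 (SE, edgeR adjusted p = 1.82e-17), and by 0.82 with the scores.

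Krüppel-like factors moved less. Klf6 rose by 0.41 and by 0.25 with the cell scores, and 57 high-Fos libraries were above every low-Fos library. Klf2, a flow-responsive factor of endothelial cells, rose by 0.19, and by 0.35 with the scores. Klf4 stood at 0.13 and just missed the threshold (adjusted p = 0.0546), while it was called at 0.29 with the scores. Myc, the growth-related factor, stood at 0.09 (adjusted p = 0.303) and changed sign under several settings. Ier5 rose by 0.38 and stood at 0.13 with the scores (adjusted p = 0.326).

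**Figure D3:**
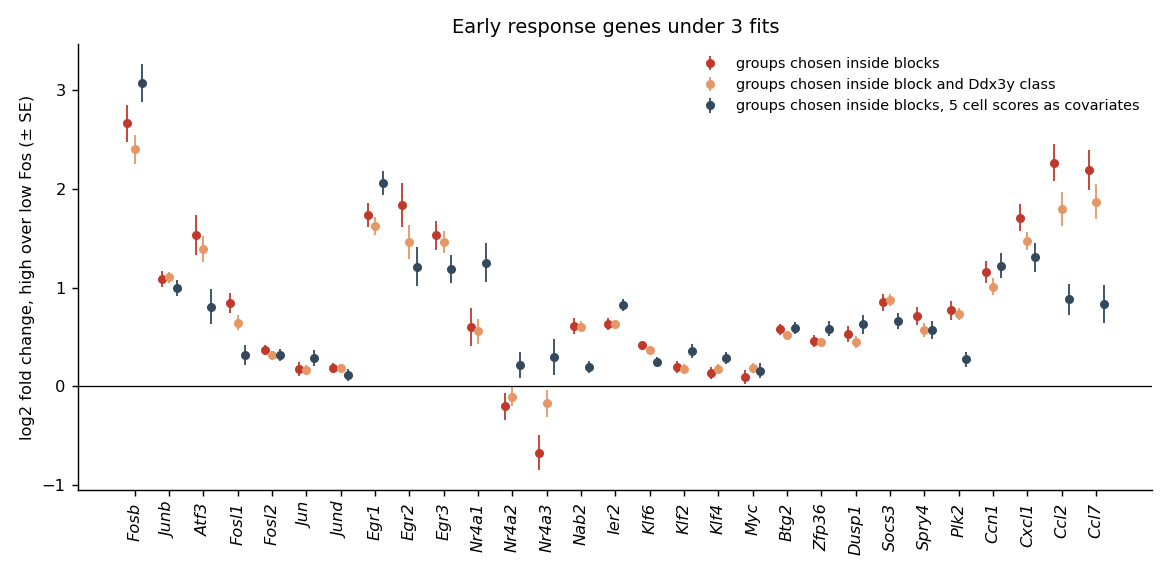
Log2 fold change of 29 early response genes between the high-Fos and the low-Fos group, with its standard error, for groups chosen inside blocks (red), groups chosen inside block and Ddx3y class (orange), and with 5 cell scores as covariates (dark). Fosb, Egr1, Nr4a1 and Ier2 lie higher with the scores, Ccl2, Ccl7, Fosl1 and Plk2 lower, and Nr4a3 changes from −0.67 to 0.30.

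Early feedback regulators stop the response: Dusp phosphatases inactivate MAP kinases, Zfp36 destroys AU-rich messenger RNAs, Socs3 blocks cytokine receptors and Spry4 restrains receptor tyrosine kinase signalling. Of 28 tested genes 15 were higher and 2 lower, and 10 were higher and 0 lower with the cell scores. Btg2, an antiproliferative regulator, lay between 38.35 and 134.6 CPM in the high-Fos group (median 74.9 CPM) and between 22.3 and 84.9 CPM in the low-Fos group (median 43.4 CPM). Its log2 fold change was 0.58 ± 0.06 (SE, edgeR adjusted p = 3.59e-17), 0.52 with balanced classes and 0.59 with the scores.

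Socs3 had few overlapping values, with 67 high-Fos libraries above every low-Fos library. It lay between 4.32 and 24.55 CPM in the high-Fos group (median 11.6 CPM) and between 2.07 and 10.45 CPM in the low-Fos group (median 4.91 CPM). The log2 fold change of Socs3 was 0.85 ± 0.09 (SE, edgeR adjusted p = 5.78e-17), and 0.66 with the scores. Zfp36 rose by 0.46, Dusp1 by 0.53 and Spry4 by 0.71, and all 3 were called with the cell scores too, at 0.58, 0.63 and 0.57. Plk2, a kinase of the centrosome, rose by 0.77, and by 0.27 with the scores. Npas4, known for its induction in neurons, lay at a median of 1.68 CPM against 0.304 CPM and rose by 1.03, but stood at 0.37 with the scores (adjusted p = 0.293).

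Among the early secreted genes 11 of 15 tested were higher and 0 lower in the high-Fos group, with a median log2 fold change of 0.69, and 10 were higher with the cell scores. Ccn1, a matricellular protein induced by stretch and serum, lay between 22.01 and 304.1 CPM in the high-Fos group (median 100.3 CPM) and between 10.3 and 122.9 CPM in the low-Fos group (median 34.8 CPM). It rose by a log2 fold change of 1.16 ± 0.11 (SE, edgeR adjusted p = 2.75e-18), and by 1.22 with the scores. Cxcl1, a chemokine for neutrophils, lay between 0.483 and 8.415 CPM in the high-Fos group (median 2.05 CPM) and between 0.0567 and 1.51 CPM in the low-Fos group (median 0.408 CPM). The groups of Cxcl1 overlapped least of all genes named, with 81 high-Fos libraries above every low-Fos library and none below the low-Fos median.

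Cxcl1 rose by a log2 fold change of 1.71 ± 0.14 (SE, edgeR adjusted p = 2.08e-24), and by 1.30 with the cell scores. The monocyte chemokines Ccl2 and Ccl7 rose by 2.27 and 2.19 and were lower with the scores, at 0.88 and 0.83, both still called. With balanced classes and scores together they stood at 0.31 (adjusted p = 0.127) and 0.41 (adjusted p = 0.0815).

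Some genes of the Fos response went with Fos in all 5 blocks but by unequal amounts. The log2 fold change of Fosb was 0.94 in block 1, 1.29 in block 2, 3.29 in block 3, 3.68 in block 4 and 3.08 in block 5, and the test of the difference between blocks passed (edgeR adjusted p = 3.51e-10). Egr1 ran from 0.96 in block 1 to 2.58 in block 4 (adjusted p = 7.01e-05), and Junb from 0.53 in block 2 to 1.52 in block 4 (adjusted p = 0.077). The Fos groups themselves stood apart by unequal amounts, with a ratio of the Fos medians of 5.57 in block 1, 5.86 in block 2, 7.19 in block 3, 9.59 in block 4 and 9.35 in block 5. Over all genes, 1.82% depended on the block by this test, and with counts capped at the 99th percentile of each gene 8 genes did.

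Across all libraries, inside block and Ddx3y class, the genes whose mean reached 5 CPM and whose log2 CPM followed Fos most closely were Fosb (Pearson r = 0.77), Egr1 (0.77), Junb (0.76), Ier2 (0.65), Ccn1 (0.59), Btg2 (0.58), Socs3 (0.58), Zfp36 (0.53), Atf3 (0.51) and Egr2 (0.50). All 10 are on the early response lists, which were chosen with earlier results of these data known. The points share the depth and composition of each library, and the values are a description.

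Genes that act upstream of Fos moved little in amount. Of 23 tested kinases, coactivators and ternary complex factors 9 were higher (39.1%) and 3 lower (13%), beside 23% and 24% of all genes. Their median log2 fold change was 0.03, and 0 were called in either direction by edgeR with the cell scores. With total count scaling the list had 15 higher and 0 lower, where 38.8% and 10.4% of all genes were called. Mrtfa, the actin-regulated coactivator of serum response factor, rose by 0.26 ± 0.04 (SE, edgeR adjusted p = 4.12e-08) and stood at 0.01 with the cell scores (adjusted p = 0.877).

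Macrophage genes rose with Fos. Of 16 tested markers 15 were higher and 0 lower, with a median log2 fold change of 0.95; the counts were also 15 and 0 inside each Ddx3y class, and 16 and 0 with balanced classes. Itgax (CD11c), of macrophages that surround dying adipocytes, lay between 0.779 and 523.2 CPM in the high-Fos group (median 51.8 CPM) and between 0.232 and 72.3 CPM in the low-Fos group (median 2.20 CPM). It rose by 3.13 ± 0.27 (SE, edgeR adjusted p = 8.17e-22). Gpnmb, a lysosomal glycoprotein of lipid-laden macrophages, rose by 2.97, Mpeg1 by 1.71 and Cd68 by 1.57. With the cell scores 2 of the 16 were higher and their median was −0.06; the macrophage score is made of these genes, so that this fit removes most of their difference by construction.

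Outside all lists, the 10 largest rises of genes with the same sign in all blocks included further genes known from macrophages: Mmp12, an elastase (3.47), Atp6v0d2, a proton pump subunit (3.40), Itgad, an integrin (3.21), Il1rn, the interleukin-1 receptor antagonist (2.85), Spp1, osteopontin (2.69), and Adam8, a metalloprotease (2.57). Tph2, an enzyme of serotonin synthesis, rose by a fitted log2 fold change of 3.56, Slc5a7, the choline transporter, by 2.44 and Ubd, a ubiquitin-like modifier, by 2.82. The fitted values take out block and Ddx3y, whereas group medians do not. For Slc5a7 the medians were 17.1 CPM against 0.957 CPM in libraries without Ddx3y counts and 84.8 CPM against 18.5 CPM in libraries with them, high-Fos first. For Tph2 they were 2.02 CPM against 0.26 CPM and 9.64 CPM against 0.251 CPM. Rgs1, a regulator of chemokine receptor signalling, rose by 3.10 ± 0.23 (SE, edgeR adjusted p = 3.31e-26). With balanced classes and cell scores together, Rgs1 was the only one of these 10 still called (0.44, adjusted p = 0.018).

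Mitotic genes rose as a group. All 16 tested were higher in the high-Fos group, with a median log2 fold change of 1.32, and 16 of 16 were called inside each Ddx3y class. Mki67, the marker of cycling cells, lay between 2.80 and 103.9 CPM in the high-Fos group (median 31.3 CPM) and between 2.06 and 58.1 CPM in the low-Fos group (median 7.45 CPM), and rose by 1.42. With the cell scores 9 were higher, and with balanced classes as well none was called by edgeR (Mki67 at 0.06, adjusted p = 0.845, and Bub1, a spindle checkpoint kinase, at 0.46, adjusted p = 0.0559).

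Inflammatory and p53 targets moved less in size. Of 13 NF-kB targets 9 were higher and 1 lower, among them Nfkb2 (0.39) and the feedback inhibitor Tnfaip3 (0.44), and 1 was higher with the cell scores. Of 10 p53 targets 7 were higher and 0 lower, among them Eda2r (0.37) and Aen (0.26), and 0 were called with the scores. S100a8, a calgranulin of neutrophils, rose by 1.79, with 2 of 5 tested neutrophil markers higher. It was not called with the scores (0.48, adjusted p = 0.353).

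Most lipogenesis genes were lower in the high-Fos group. Of 11 tested 9 were lower and 0 higher, with a list median of −0.77, and 4 were lower with the cell scores. Inside the Ddx3y classes 10 were lower without Ddx3y counts and 4 with them. Acaca, the first enzyme of fatty acid synthesis, lay between 236.6 and 6143 CPM in the high-Fos group (median 582.4 CPM) and between 430 and 7337 CPM in the low-Fos group (median 2942 CPM). All high-Fos libraries but 1 were below the low-Fos median. Its fitted log2 fold change, which takes out block and Ddx3y, was −1.13 ± 0.16 (SE, edgeR adjusted p = 1.54e-09). Thrsp (−1.23), Acacb (−1.13) and Acly (−0.99) were like it.

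The lipogenic differences were not alike in both Ddx3y classes. Acly, which makes the acetyl-CoA used for lipids, had medians of 530.5 CPM against 2161 CPM in libraries without Ddx3y counts, and 558.7 CPM against 534.8 CPM in libraries with them, high-Fos first. The log2 fold changes were −1.85 ± 0.29 and −0.22 ± 0.15 (SE), and the test of the difference between classes passed (edgeR adjusted p = 0.00015). In the same way the thermogenesis list had 10 of 10 genes lower (median −1.74) without Ddx3y counts, and 1 higher and 0 lower (median 0.11) with them. Cidea, a lipid droplet protein of brown and beige fat, stood at −2.12 ± 0.45 and −0.38 ± 0.26, and this difference passed as well (adjusted p = 0.0143).

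Over both classes 6 of the 10 thermogenesis genes were lower, among them Cox8b (−0.89), Ppara (−0.80) and Ppargc1a (−0.95), and 0 were called with the cell scores. The mitochondrially encoded genes had 0 higher and 11 lower of 15, and 0 of either with the scores, by edgeR. In all, 2425 genes (13.2%) depended on the Ddx3y class by the test of the difference. Only 19 high-Fos libraries had no Ddx3y count and only 17 low-Fos libraries had one, so that each class rests on a small group on one side. Among the early response genes shown in the plot of both classes, some differed little: Fosb stood at 2.84 and 2.61, Egr1 at 1.76 and 1.75, and Junb at 1.05 and 1.15. For Maff and Mafk, in the same plot, the test of the difference passed. Their log2 fold change without Ddx3y counts minus that with them was −0.66 and 0.32.

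**Figure D4:**
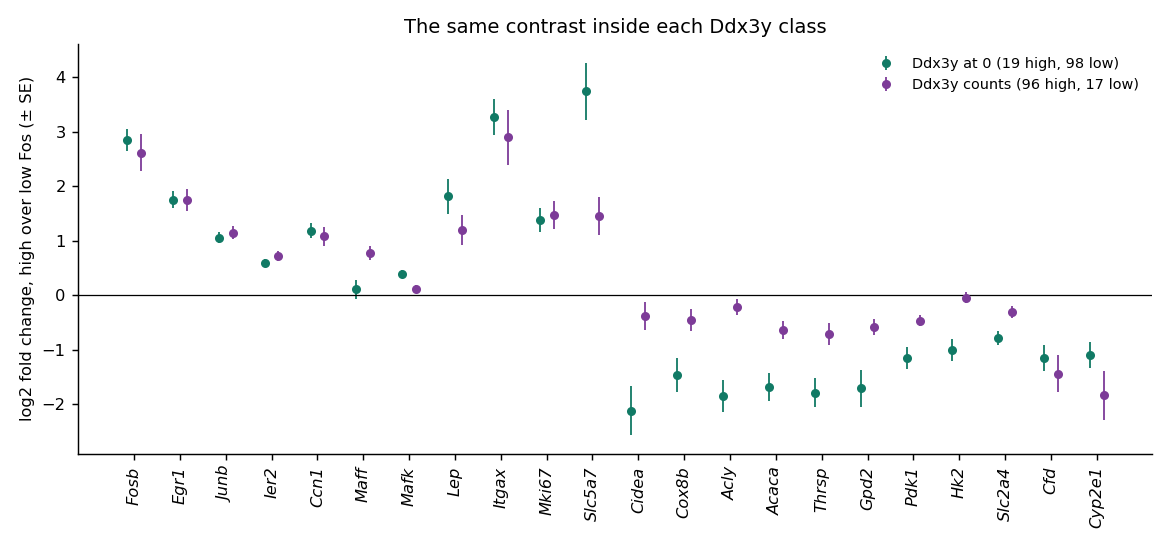
Log2 fold change between the high-Fos and the low-Fos group, with its standard error, inside libraries without Ddx3y counts (green, 19 high and 98 low) and inside libraries with them (purple, 96 high and 17 low). Fosb, Egr1, Junb, Ier2 and Ccn1 lie at like heights in both classes, whereas Cidea, Acly, Acaca and Gpd2 fall further in libraries without Ddx3y counts and Slc5a7 rises further.

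Lipolysis genes had 0 higher and 5 lower of 10, among them Pnpla2, the first lipase of stored fat (−0.41), and Adrb3, its adrenergic receptor (−0.55), and 0 were called with the scores. Of 13 adipocyte markers 1 was higher and 8 lower. The 1 higher was Lep, the hormone of fat mass, which lay between 74.8 and 5701 CPM in the high-Fos group (median 2546 CPM) and between 8.74 and 3632 CPM in the low-Fos group (median 338.7 CPM), and rose by 1.52 ± 0.21 (SE, edgeR adjusted p = 9.73e-11). Cfd, or adipsin, fell by 1.33 on the log2 scale, Retn, resistin, by 0.62 and Slc2a4, the insulin-responsive glucose transporter, by 0.54. With the scores Lep was called at 0.64 and Slc2a4 was not (−0.19, adjusted p = 0.076). The adipocyte score is made of these markers, so that this fit removes part of their difference by construction.

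The 10 largest falls outside the lists included Irf4, a transcription factor of adipocytes and lymphocytes (−1.78), Tmem79 (−1.64), Cyp2e1, a cytochrome P450 (−1.41), Slc2a5, the fructose transporter (−1.38), Mpzl2 (−1.28), BB365896 (−1.28), Eci3, an enoyl-CoA isomerase (−1.16), Fam13a (−1.14) and Gpd2, the mitochondrial glycerol phosphate dehydrogenase (−1.06). For Irf4 all high-Fos libraries but 7 were below the low-Fos median of 42.55 CPM. With balanced classes and scores together, Tmem79 (−0.62, adjusted p = 0.0176) and Mpzl2 (−0.46, adjusted p = 0.0109) were the only ones of these 9 called.

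Stress programmes that can accompany tissue handling were compared beside the early response. Heat shock genes had 0 higher and 8 lower (53.3%) of 15 (median −0.26), where 24% of all genes were called lower. Inside the Ddx3y classes 9 were lower without Ddx3y counts (median −0.39) and 2 with them (median −0.05). The difference between the classes was not tested for the list. Balanced classes gave 1 higher and 10 lower. Total count scaling gave 1 and 3, where it called 38.8% and 10.4% of all genes. With the cell scores 0 of either were called. Hspa1a, a strongly inducible chaperone, lay between 5.01 and 222.6 CPM in the high-Fos group (median 18.2 CPM) and between 3.37 and 281.2 CPM in the low-Fos group (median 30.6 CPM), and stood at −0.53 ± 0.24 (SE, edgeR adjusted p = 0.0644). The chaperones Hspd1 (−0.41) and Fkbp4 (−0.43) fell. Of 13 genes of the integrated stress and unfolded protein response 4 were higher (30.8%) and 4 lower (30.8%), where 23% and 24% of all genes were called. The higher ones included Hspa5 (0.33) and Sdf2l1 (0.47), and the lower ones Asns, asparagine synthetase (−0.73). The median of that list changed sign with total count scaling, from −0.05 to 0.04.

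Hypoxia and glycolysis genes had 2 higher (15.4%) and 4 lower (30.8%) of 13, beside 23% and 24% of all genes. The lower ones included Vegfa, the angiogenic factor (−0.49), Pdk1 (−0.80) and Hk2, hexokinase 2 (−0.51). With the scores 1 gene of this list was called higher and 1 lower. Glucocorticoid response genes had 2 higher (16.7%) and 3 lower (25%) of 12, with the metal-binding protein Mt2 at 0.85, and clock genes 1 higher (6.25%) and 4 lower (25%) of 16, where 23% and 24% of all genes were called. With the scores 1 and 0 of the former were called, and 0 of the latter. Of the 2 cold-inducible genes 1 was higher, and of 4 nuclear retained RNAs 1 was higher and 1 lower.

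Markers of other cells that adipose tissue can hold were counted in the same way. Adipocyte progenitor genes had 4 higher and 1 lower of 10, with the collagens Col1a1 at 0.95 and Col3a1 at 0.70. They had 9 higher and 0 lower with balanced classes (median 0.25), and 0 of either by edgeR with the scores, which include a score made of these genes. Endothelial genes had 2 higher and 2 lower of 10 (20% each), below the shares of all genes called, and pericyte genes 1 and 0 of 6. Smooth muscle genes had 1 higher of 10, Synpo2 (0.67), with a list median of −0.25. Inside the Ddx3y classes they had 3 higher and 0 lower without Ddx3y counts (median 0.31) and 0 higher and 7 lower with them (median −0.81), and the difference between the classes was not tested for the list. Schwann cell genes had 0 higher and 4 lower of 6, among them Sox10 (−0.62) and Cdh19 (−0.81). T cell and B cell genes had 2 higher each, of 9 (22.2%) and 7 (28.6%), near the share of all genes called higher (23%). Mast cell, mesothelial, red blood cell, skeletal muscle and epididymis genes had none called by edgeR in either direction, and of pancreas genes the 1 tested was higher.

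Liver genes depended on the choice of groups. Of 6 tested 1 was higher (list median 0.70), but all 6 were higher with balanced classes (1.26) and with balanced classes and scores together (2.22), and 0 of either by edgeR with the scores alone (1.24). Their summed level lay between 3.15 and 2222 CPM in the high-Fos group (median 49.7 CPM) and between 3.96 and 5503 CPM in the low-Fos group (median 24.7 CPM), so that the highest sum was in a low-Fos library. The part of liver transcripts in other results was not tested. Cytosolic ribosomal protein genes had 2 higher (2.38%) and 23 lower (27.4%) of 84, where 23% and 24% of all genes were called. Their median of −0.07 turned to 0.05 with total count scaling. With balanced classes they had 7 higher and 3 lower (median 0.01), and in libraries without Ddx3y counts 1 and 2.

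**Figure D5:**
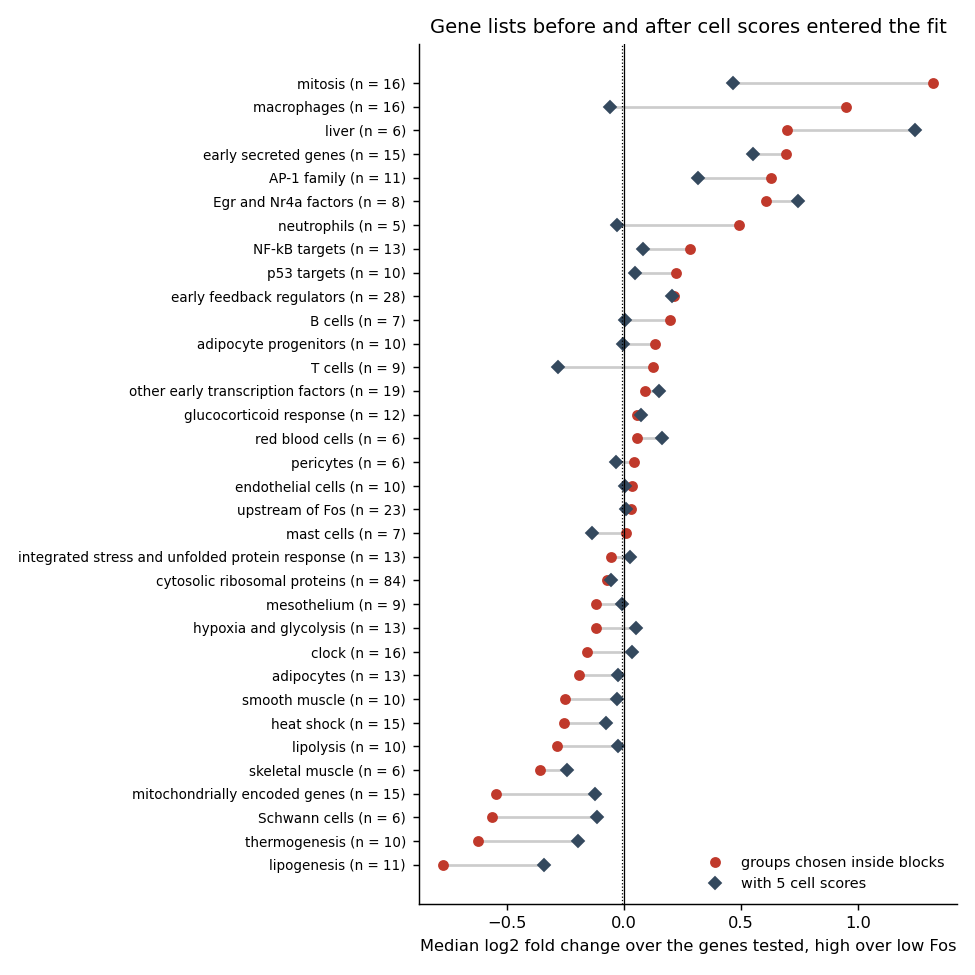
Median log2 fold change of each gene list with at least 5 tested genes, between the high-Fos and the low-Fos group (red circles) and with 5 cell scores as covariates (dark diamonds), with the number of genes tested; the dotted line is the median of all genes. With the scores the medians of the 5 early response lists lie between 0.15 and 0.74, with AP-1 moving from 0.63 to 0.32, while the macrophage list moves from 0.95 to −0.06. The scores are made of the adipocyte, macrophage, endothelial, smooth muscle and progenitor lists. The fit with scores therefore removes most of the difference of such a list by construction.

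Read by the smallest p instead of by lists, the comparison with cell scores was led by early response genes. Of its 20 genes with the smallest p, 17 were on those lists, with Egr1, Fosb, Ier2, Junb and Ccn1 first. The lists hold 81 of the 18379 genes tested and were chosen with earlier results of these data known. The 3 others, named after their values were seen, were Has1, a hyaluronan synthase (1.28 ± 0.22, SE, edgeR adjusted p = 1.43e-05), Rgs1 (0.96) and Gm17501 (0.58). Of the 81 early response genes 32 were called both without and with the scores. With balanced classes and scores together 47 of the 81 were higher and 0 lower, where 4.9% and 1.76% of all genes were called.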

How the data were processed

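RNA of adipose tissue was measured in 468 libraries. Libraries were made from polyadenylated RNA, and the authors aligned the reads of each pair as single ends to a transcriptome joining the founder strains and estimated abundances by expectation maximization (EMASE, run by GBRS). The labels name GRCm38 and DESeq2 without a version, and whether strand was used is not given in the sources used here. A main table deposited by the authors holds expected counts per gene, and a second deposited table holds log2 values of the variance stabilizing transformation (VST). Total counts ran from 35.3 to 137.8, with a median of 82.0, in units of 1000000 counts. Precision is that of 1 library per mouse.

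Expected counts, of which 66.8% were whole within 1e-06, were rounded. Of 23180 genes, 18380 had at least 10 counts in a share of 0.5 of the libraries, and 18379 were tested without Fos. The tests used TMM factors and edgeR 4.0.16 with glmQLFit and glmQLFTest (R 4.3.3), and p-values were adjusted by Benjamini-Hochberg over all genes tested. CPM values in the text were divided by total counts alone, so that their medians and the fitted fold changes, which take out block, Ddx3y and TMM factor, can differ. Log2 CPM used a prior count of 2. Library properties were compared by two-sided permutation with 100000 resamples. Scripts were tested on simulated data. DESeq2 1.42.0, limma 3.58.1 and other choices of libraries and covariates were alternatives.

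The members and the gene lists were chosen with earlier results of these data known. Genes named are all tested AP-1, Egr and Nr4a genes with Ier2, Dusp1, Zfp36, Btg2, Klf2, Klf4, Socs3 and Myc; of every other list, some of the up to 4 members with the largest absolute log2 fold change and a mean of at least 1 CPM; outside the lists, the 10 largest rises and falls with a mean of at least 5 CPM and the same sign in all 5 blocks; and the 10 genes most correlated with Fos. Exons of 24 of the genes named overlap another gene in GENCODE M21, and expectation maximization divides shared reads, so that their counts are less certain. Of the genes these rules select, 3 are not reported here. Cela1 was the only pancreas gene tested.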

Additional observations from a re-analysis of the deposited data

Results flagged for a closer look

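For 16 of the 95 genes named, the difference between the high-Fos and the low-Fos group itself differed between libraries without and with Ddx3y counts (edgeR's test of the difference, adjusted p under 0.05). Over all genes tested, 13.2% passed the same test. The values are the log2 fold change without Ddx3y counts minus that with them. Among early response genes it was −0.66 for Maff, 0.32 for Mafk and 0.42 for Myc, so that Maff rose more in libraries with Ddx3y counts. Fat synthesis and glucose uptake genes gave −1.65 for Acly, −1.08 for Thrsp, −1.04 for Acaca and −0.51 for Slc2a4. Genes of mitochondria, heat and glycolysis gave −1.70 for Cidea, −1.01 for Cox8b, −1.09 for Gpd2, −0.99 for Hk2, −0.71 for Pdk1 and −0.44 for the chaperone Hspd1. Tmem79 gave −1.73, the smooth muscle gene Synpo2 0.88 and the choline transporter Slc5a7 2.06.

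For 7 of the genes named the difference depended on the block of mouse numbers (edgeR, adjusted p under 0.05), as it did for 1.82% of all genes tested. The largest minus the smallest log2 fold change of the 5 blocks was 2.74 for Fosb, 1.62 for Egr1, 0.65 for Ier2, 0.41 for Zfp36, 0.37 for Btg2, 0.56 for Ccn1 and 3.79 for Slc2a5. Of these, 6 are early response genes, and the span of the Fos groups also differed between blocks, so that both cannot be told apart here.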

How the results depend on the processing

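Counts of called genes are given here as percent of the 18379 genes, higher first, then lower, then at least 1.5-fold apart, beside 22.98%, 24.05% and 8.54% as reported. They moved by over 1.5 times, or to 0, under these settings. Scaling by total count gave 38.8% higher and 10.4% lower. A minimum mean of 10 CPM per gene, which leaves fewer genes to test, gave 14.5%, 15.9% and 2.66%. Without Ddx3y as a covariate 37.6% were higher and 20.8% passed 1.5-fold. The 5 cell scores gave 2.52%, 0.898% and 0.642%, the macrophage score alone 5.36%, 1.87% and 1.98%, and balanced classes with scores 4.90%, 1.76% and 1.71% (both chosen after seeing the data). The top and bottom 10% of each block gave 13.7%, 14.5% and 12.98%. The slope between the groups gave 2.99% and 1.76%. With scores it gave 0.163% and 0%, or 0.142% and 0% without the library with the highest Vil1, and both were chosen after seeing the data. Alone, block 1 gave 12.9% lower and 14.5% past 1.5-fold, block 2 2.29%, 1.78% and 2.53%, block 3 9.10% and 10.1%, block 4 8.22% and 4.73%, and block 5 0.0163%, 0% and 0.0163% (4.63% and 2.76% by edgeR at an unadjusted p under 0.05). Libraries with Ddx3y counts alone gave 14.6% and 15.7%. At 1.5-fold, VST values with limma gave 3.44%, depth and mitochondrial share as covariates 4.83%, no blocks 4.83%, library-number blocks 4.67% and the upper against the lower 50% 3.52%. Dependence on Ddx3y class rose from 13.2% to 22.98% of genes with total count scaling, and dependence on block fell from 1.82% to 0.0435% with capped counts. Leaving out 1 block at a time gave 18.6% to 24.1%, 19.1% to 23.5% and 7.43% to 9.84%. Leaving out 4 libraries in doubt, chosen after seeing the data, gave 22.9% and 24.5%.

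Of 3526 values of 95 named genes, 83.8% kept sign and call, 14% lost the call, 39 gained it and 40 changed sign, over 19 genes. With scores, Batf stood at −0.065, Nr4a2 at 0.21 and Nr4a3 at 0.30. With the macrophage score alone, Batf stood at −0.0090, Nr4a2 at 0.15, Nr4a3 at 0.050, Mrtfa at −0.0027, Sdf2l1 at −0.026 and Col3a1 at −0.075. With balanced classes and scores, Nr4a2 stood at 0.39, Nr4a3 at 0.62, Nab1 at −0.0079, Hspa1a at 0.29, Vegfa at 0.031, Nfkb2 at −0.0099, Adrb3 at 0.038, Pnpla2 at 0.019, Col3a1 at −0.029, Sox10 at 0.14, Ubd at −0.043 and Fam13a at 0.14. On the slope between the groups Nr4a2 stood at 0.18, and with scores Batf at −0.077, Nr4a2 at 0.30 and Nr4a3 at 0.0071. Nr4a2 stood at 0.10 with depth and mitochondrial share, 0.029 with no blocks, 0.0083 with library-number blocks and 0.036 for upper against lower 50%. Nr4a3 stood at 0.46 for the top and bottom 10%. Myc stood at −0.026 without Ddx3y, −0.016 with depth and mitochondrial share, −0.18 in block 3 and −0.10 in libraries with Ddx3y counts. Jun stood at −0.013 and Klf4 at −0.052 in block 1, and Nr4a3 at 0.083, Nab1 at −0.14, Sox10 at 0.53 and Cdh19 at 0.58 in block 5. The causes were not tested. No paired analysis was possible because each library is a different mouse and the labels give no replicate numbers shared by groups.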

Other observations

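The libraries between the groups, none of which the choice by Fos level had placed in the high-Fos or low-Fos group, gave values of their own. With log2 Fos CPM as a slope and the 5 cell scores as covariates, 30 genes rose with Fos and 0 fell (edgeR, adjusted p under 0.05; 3.73% and 2.77% of all genes at an unadjusted p under 0.05). Of the 30 genes, 14 are early response genes, with slopes per doubling of Fos of 1.18 for Fosb, 0.90 for Egr1, 0.61 for Nr4a1, 0.58 for Ccn1, 0.51 for Egr3, 0.45 for Cxcl1, 0.40 for Junb, 0.36 for Apold1, 0.33 for Ier2, 0.27 for Dusp1, 0.23 for Zfp36, 0.22 for Adamts1, 0.19 for Btg2 and 0.15 for Dusp6. Another was Ppp1r15a, a phosphatase subunit of the integrated stress response (0.19).

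The other 15, named after their values were seen, are mostly genes known from epithelia such as that of the gut: Myo1a (1.44), Krt20 (1.40), Cdhr5 (1.35), Naaladl1 (1.24), Cdh1 (1.22), Muc13 (1.14), Dsg2 (1.08), Vil1 (1.07), Ckmt1 (1.05), Epcam (1.05), Pls1 (1.04), Slc15a1 (1.02), Muc2 (0.96), Slc34a2 (0.96) and Slc6a19 (0.94). Their medians over all libraries were low, for example 0.85 CPM for Vil1 and 1.31 CPM for Muc2, with maxima of 166.9 CPM and 199.3 CPM, and 11 of them had their maximum in 1 library, that of mouse 310. Without that library 26 genes rose and 0 fell, and Cdhr5 (adjusted p = 0.0609), Epcam (0.0609), Pls1 (0.112) and Slc15a1 (0.168) were no longer called. Of the 16 genes outside the early response lists 14 were not called between the high-Fos and the low-Fos group, so that the epithelial genes went with Fos between the groups and, in the main comparison, only Muc13 among them was called (0.92, adjusted p = 0.0255).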
